A study of Mus musculus with 51 samples.

Results

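The response of the mammary gland (MG) to high-dose (HD) X-rays was compared between BALB/c and C57BL/6 mice 4 hr after exposure ended, to separate what both inbred strains did from what differed between them. The comparison uses 14 of the 51 arrays of the series, with 4 HD and 3 sham mice of each strain and 1 array per mouse. All were virgin females of about 8 weeks of age at the first exposure. HD mice received 4 weekly whole-body fractions of 1.8 Gy, and sham mice were handled on the same weekly schedule without dose. The tissue was the fourth pair of glands with the inguinal lymph node taken out, so that RNA came from the whole gland with its epithelium, fat and stroma. The response of a strain is its HD mean minus its sham mean on the log2 scale, and the strain difference is the BALB/c response minus the C57BL/6 response. It was taken over all 22626 probe sets, of which 18003 carry 1 gene symbol and stand for 11807 genes. Neither genotype was modified, and the strains differ in their whole genetic background, with BALB/c known as the strain more prone to radiation-induced mammary cancer.

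Ionizing radiation breaks DNA and stabilizes the transcription factor p53, which switches on genes of cell cycle arrest, DNA damage tolerance, apoptosis and its own inhibition. The mammary gland of an adult virgin consists of luminal cells, which line the ducts and carry keratins 8, 18 and 19, and of myoepithelial cells around them, within fat and connective tissue that also hold macrophages. MHC class II genes encode the heterodimers with which macrophages, dendritic cells and B cells present peptides to T helper cells.

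Genes called after HD in both strains included 13 measured p53 targets that rose and 6 MHC class II genes that fell. Promoters of some of them are shown with the motif searched in each group, a p53 half-site in the first and CCAAT in the second. The windows run from 250 bases before to 50 after an annotated RefSeq start of the GRCm38.p6 build, and 11 of the 13 p53 targets and 4 of the 6 class II genes had one that was searched. A p53 half-site, the motif bound by a p53 dimer, was found on either strand in 8 of 15 windows and 7 of the 11 genes, against 8.36% of 32851 promoter windows of all genes. The letters CCAAT, which form part of the known control module of class II genes, were found on either strand in 4 of 5 windows and in each of the 4 genes, against 37.4% of all windows. In the sequences below the matches are in capitals, and distances are counted to the first base of a match. In Cdkn1a (chr17:29090729-29091028, plus strand) matches began 73 and 51 bases before the start, in Mdm2 (chr10:117710709-117711008, minus strand) 186 bases before it, and in Ccng1 (chr11:40755237-40755536, minus strand) 185 bases before it. The window at another annotated start of Cdkn1a (chr17:29093519-29093818, plus strand) held no match. In H2-Aa (chr17:34287774-34288073, minus strand) the CCAAT match began 48 bases before the start, and in H2-Eb1 (chr17:34305617-34305916, plus strand) matches began 59 and 35 bases before it.
Cdkn1a, p53 half-sites in capitals: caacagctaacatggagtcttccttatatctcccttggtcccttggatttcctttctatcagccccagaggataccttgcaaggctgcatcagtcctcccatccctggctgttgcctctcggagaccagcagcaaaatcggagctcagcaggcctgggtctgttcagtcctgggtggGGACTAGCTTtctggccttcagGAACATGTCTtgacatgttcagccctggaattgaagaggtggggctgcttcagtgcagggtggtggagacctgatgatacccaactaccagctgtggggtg
Mdm2, p53 half-site in capitals: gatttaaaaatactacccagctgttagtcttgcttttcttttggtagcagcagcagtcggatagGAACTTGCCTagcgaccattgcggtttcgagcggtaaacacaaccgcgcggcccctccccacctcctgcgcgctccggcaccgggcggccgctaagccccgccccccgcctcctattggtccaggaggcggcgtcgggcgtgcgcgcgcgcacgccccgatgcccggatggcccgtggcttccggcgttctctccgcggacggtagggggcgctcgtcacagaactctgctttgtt
Ccng1, p53 half-site in capitals: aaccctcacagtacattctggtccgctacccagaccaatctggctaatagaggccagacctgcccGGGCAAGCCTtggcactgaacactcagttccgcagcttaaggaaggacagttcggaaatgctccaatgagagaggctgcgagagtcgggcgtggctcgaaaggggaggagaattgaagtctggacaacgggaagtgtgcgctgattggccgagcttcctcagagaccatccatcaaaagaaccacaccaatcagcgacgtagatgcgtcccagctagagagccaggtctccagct
H2-Aa, CCAAT or its reverse complement in capitals: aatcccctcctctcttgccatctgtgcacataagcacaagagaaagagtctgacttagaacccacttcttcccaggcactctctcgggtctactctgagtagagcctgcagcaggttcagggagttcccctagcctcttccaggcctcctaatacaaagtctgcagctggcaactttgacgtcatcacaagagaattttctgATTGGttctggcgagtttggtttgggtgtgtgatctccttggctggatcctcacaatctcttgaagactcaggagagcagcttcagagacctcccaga
H2-Eb1, CCAAT or its reverse complement in capitals: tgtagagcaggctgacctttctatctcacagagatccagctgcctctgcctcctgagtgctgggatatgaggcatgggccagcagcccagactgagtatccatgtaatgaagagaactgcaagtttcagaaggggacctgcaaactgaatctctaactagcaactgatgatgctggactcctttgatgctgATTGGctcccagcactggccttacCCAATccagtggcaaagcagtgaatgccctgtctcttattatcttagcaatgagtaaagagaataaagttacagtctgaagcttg
A match describes these letters only, and binding was not measured.

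The arrays carried the markers of the gland. Luminal Krt8 and Krt18, myoepithelial Acta2 and the fat cell gene Adipoq had group means of 9.17 to 11.66, 10.22 to 11.71, 11.82 to 12.48 and 13.44 to 13.67. B and T cell markers were low, with Cd79a at no more than 4.49 and Cd3e at no more than 6.19 on any array. A pair of BALB/c arrays stood apart by skeletal muscle transcripts. Over 35 muscle genes, the mean of BALB/c HD replicate 1 was 10.23, with 5.07 to 5.12 on the other BALB/c HD arrays, and that of BALB/c sham replicate 1 was 6.44, with 5.07 and 5.12 on the other sham arrays. C57BL/6 arrays had 4.95 to 5.07. The muscle actin Acta1 reached 13.02 in BALB/c HD and 7.50 in C57BL/6 HD. Results were therefore also computed without both BALB/c arrays. The list mean of epidermis and hair genes was 5.17 on BALB/c HD replicate 1, with 4.61 to 4.66 on the other BALB/c HD arrays. On BALB/c sham replicate 2 it was 5.11, with 4.83 and 4.86 on the other sham arrays, and on C57BL/6 arrays 4.69 to 4.87. Each strain was run on a plate of its own, which cancels in the strain difference, but on both plates HD arrays stood in other columns than sham arrays, so dose and plate position cannot be told apart within a strain.

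No probe set had a strain difference past the adjusted threshold. A probe set was called at an adjusted p under 0.05 from limma over all probe sets, and 0 of 22626 (0%) were called for the strain difference, with the smallest adjusted p at 0.11 for Akap9 and the next at 0.181 for H2-Ea. At an unadjusted p under 0.05 there were 1404 probe sets. The median standard error of the strain difference was 0.181, and the median 95% interval reached 0.368 to either side of the estimate. That interval lay within 0.58 on either side of 0, the fold minimum the study used, for 13789 probe sets (60.9%), so that for the rest a difference of that size was not bounded. Leaving out BALB/c HD replicate 1, the array with most muscle transcripts, gave 3 calls, for H2-Ea, Akap9 and Ncan (strain differences −1.83, −0.98 and 2.12, adjusted p = 0.036 for each). Without both BALB/c arrays with muscle transcripts there were 0 calls (smallest adjusted p = 0.097, limma). With the muscle score as a covariate there were also 0 (smallest adjusted p = 0.065, limma).

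Most probe sets called in 1 strain had a response of the same sign in the other. In BALB/c 1501 probe sets were called and in C57BL/6 214, and 121 were called in both, all with the same sign. These were 8.06% of the BALB/c calls and 56.5% of the C57BL/6 calls. Of the BALB/c calls 1362 (90.7%) had the same sign in C57BL/6, and of the C57BL/6 calls 203 (94.9%) had the same sign in BALB/c. The share of all probe sets with the same sign in both strains was not computed, so these shares have no background beside them. The strains share no array, and across probe sets the 2 responses had r = 0.595, a description over probe sets that share arrays and depth of signal. Of the probe sets called in both strains 60 rose (0.265% of all) and 61 fell (0.27% of all), and 101 of them carry 1 symbol and stand for 85 genes, 38 higher and 47 lower. The 95% interval of the strain difference included 0 for 119 of the 121 and lay within 0.58 on either side of 0 for 43. On 115 of the 121, HD and sham arrays did not overlap in either strain, which 876 probe sets (3.87%) did in all. The count of 121 moved with single arrays and was 55 without C57BL/6 sham replicate 1, 69 without C57BL/6 HD replicate 3, 71 without C57BL/6 sham replicate 3 and 78 without C57BL/6 HD replicate 1. With plate column as a covariate it was 57, 49 of them among the 121. The calls of each strain moved as well. The 1501 of BALB/c were 558 without sham replicate 2, 640 without HD replicate 3, 721 without sham replicate 1, 851 without HD replicate 4, 869 without both arrays rich in muscle RNA, 865 in a fit of the 14 arrays alone and 446 with plate column. The 214 of C57BL/6 were 83 without sham replicate 1, 95 without HD replicate 3, 116 without sham replicate 3, 129 without HD replicate 1, 72 with plate column, 337 with array weights and 346 with median centring.

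**Figure D1:**
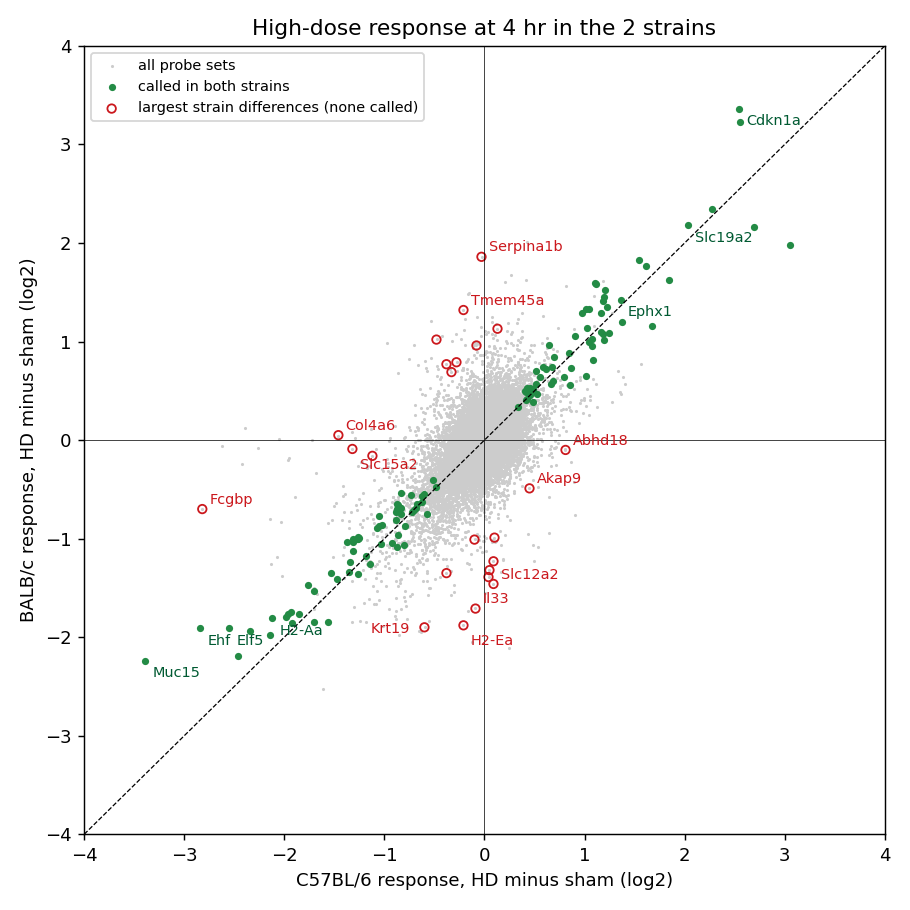
Response to HD at 4 hr (HD minus sham, log2) in BALB/c on the vertical axis against C57BL/6 on the horizontal axis, 1 dot per probe set. Green dots are the 121 probe sets called in both strains, red rings the 24 genes named for their strain difference, of which none was called, and the dashed line marks equal responses. The green dots lie in the lower left and the upper right of the plot, with Cdkn1a highest at 3.36 and 2.54.

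Among the p53 targets, HD raised the same core of genes in both strains. Cdkn1a, the p21 inhibitor of cyclin-dependent kinases on chromosome 17 from 29090979 to 29100722, had the largest response. Its sham arrays had 6.33, 7.75 and 7.55 in BALB/c and 8.28, 7.91 and 8.46 in C57BL/6, and its HD arrays 10.44, 10.73, 10.47 and 10.63 in BALB/c and 10.51, 10.91, 10.60 and 11 in C57BL/6. HD and sham stood apart in both strains, and the HD arrays of the strains reached overlapping levels. Cdkn1a thus rose 10.2-fold in BALB/c and 5.83-fold in C57BL/6 (log2 3.36 ± 0.39 and 2.54 ± 0.39, SE), with a strain difference of 0.81 and a 95% interval from −0.30 to 1.93. The interval rests on a spread pooled over all mammary groups of the fit. Among the groups compared here the BALB/c sham arrays were spread most (SD 0.77), with replicate 1 lowest. A further probe set of the gene rose by 3.23 and 2.55.

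Outside the p53 list, Slc19a2, a thiamine transporter, had sham values of 6.61, 6.45 and 5.96 in BALB/c and 6.55, 6.38 and 6.68 in C57BL/6, and HD values of 8.64, 8.37, 8.54 and 8.52 and of 8.63, 8.62, 8.49 and 8.53. It rose by 2.18 in BALB/c and 2.03 in C57BL/6, with a strain difference of 0.15 (interval −0.28 to 0.57). A dimmer probe set of Slc19a2 rose by 0.56 and 0.85, with a difference of the other sign (−0.29, interval −0.74 to 0.16). On the list, Ephx1, the microsomal epoxide hydrolase, went from 9.52, 9.34 and 9.90 to 11.10, 10.96, 11.10 and 10.87 in BALB/c and from 9.50, 9.31 and 9.16 to 10.64, 10.57, 10.80 and 10.70 in C57BL/6. Its responses of 1.42 and 1.36 differed by 0.06 (interval −0.28 to 0.41). At the first probe set of Slc19a2 and in Ephx1 the interval lies within the study's fold minimum on either side. Mdm2, the ubiquitin ligase that removes p53, had 1.10 and 1.16 (difference −0.06, interval −0.35 to 0.23) at one probe set and 1.35 and 1.22 at another (difference 0.14, interval −0.30 to 0.57). Zmat3, an RNA-binding p53 target, rose by 1.20 and 1.37 (interval −0.57 to 0.22).

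Further genes of the list rose in both strains. Trp53inp1, a p53 cofactor, rose by 1.77 and 1.61 at one probe set and by 1.16 and 1.67 at another, and the exonuclease gene Aen by 1.83 and 1.54 at one and by 1.62 and 1.84 at another, so that the sign of the strain difference turned between probe sets of 1 gene. Ccng1, the atypical cyclin G1, rose by 1.41 and 1.18 (interval −0.14 to 0.60). Gtse1 and Sesn2, p53 targets of cell cycle and stress control, rose by 1.33 and 1.01 and by 1.06 and 0.90. Ak1, an adenylate kinase outside the list, rose by 1.58 and 1.11. For 2 of the 121 probe sets the interval of the strain difference left out 0, before any adjustment for the number of probe sets. Dcxr, a sugar and dicarbonyl reductase, went from 7.81, 7.75 and 7.96 to 9.29, 9.52, 9.28 and 9.37 in BALB/c and from 8.11, 8.12 and 8.01 to 9.20, 9.26, 9.34 and 9.32 in C57BL/6. Its responses were 1.52 and 1.20 and its strain difference 0.33 (interval 0.02 to 0.63, adjusted p = 0.787). Polk, a translesion DNA polymerase, went from 6.12, 6.63 and 6.52 to 8.28, 8.12, 7.95 and 7.70 in BALB/c and from 6.87, 7.12 and 6.92 to 8.16, 8.05, 8.00 and 8.10 in C57BL/6. Its responses were 1.59 and 1.10 and its difference 0.48 (interval 0.02 to 0.95, adjusted p = 0.798). Another probe set of Polk rose by 0.47 and 0.52, with a difference of −0.05 (interval −0.42 to 0.33). In Dcxr and in Polk at the first probe set the HD levels of the strains overlapped while the BALB/c sham arrays lay below those of C57BL/6.

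**Figure D2:**
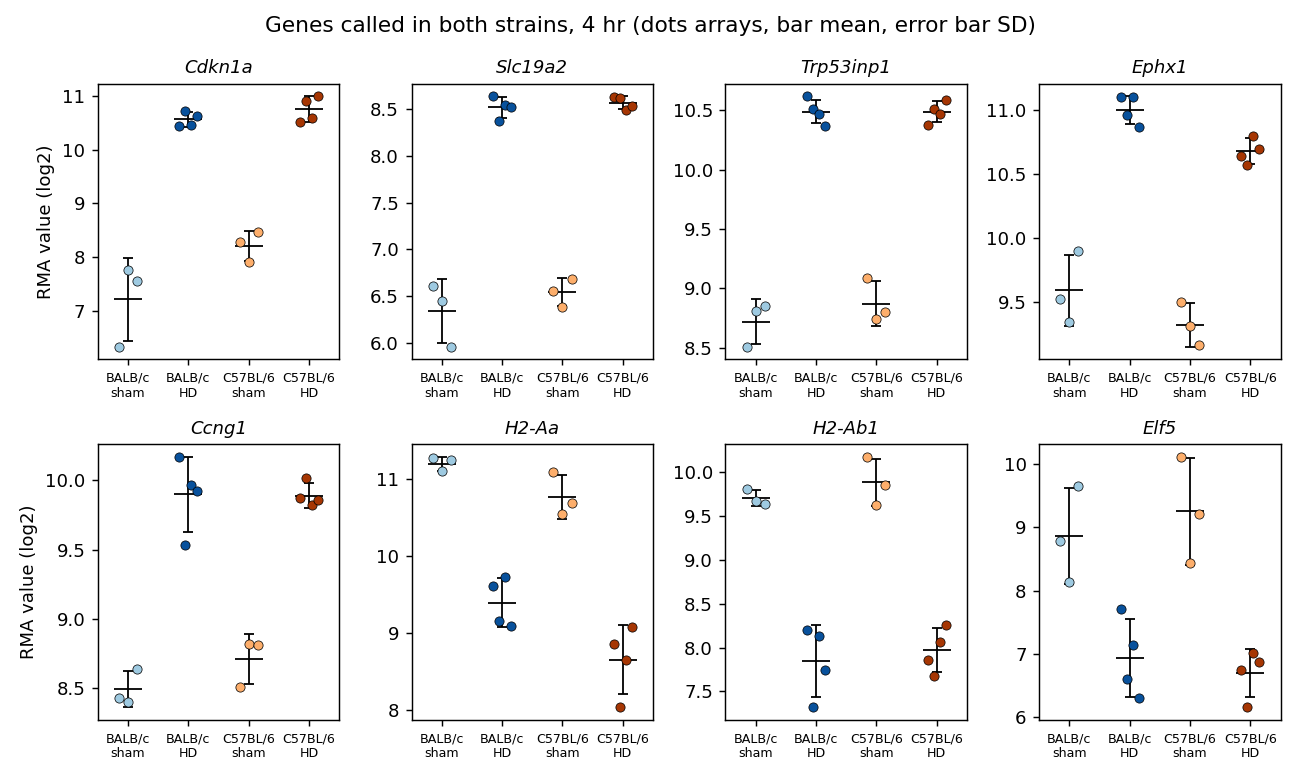
RMA values (log2) on the vertical axis of 8 genes called in both strains, with 1 dot per array, the bar at the group mean and the error bar 1 SD, for 3 sham and 4 HD arrays of each strain. In each gene shown HD and sham arrays do not overlap in either strain, and Slc19a2 has almost the same levels in both strains.

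Over the 28 measured genes of the list of p53 targets of arrest and feedback, 16 rose in BALB/c, where 3.43% of all genes rose, and 13 rose in C57BL/6, where 0.567% rose. The 13 rose in both strains and none fell. As with every list here, members were chosen with earlier results of these data known, so such counts are no independent evidence. The medians were 0.832 in BALB/c and 0.526 in C57BL/6, with −0.00389 and −0.00711 over all genes, and the median strain difference was 0.16, with 17 of 28 positive. That median was 0.09 without the BALB/c arrays with muscle transcripts and 0.07 without BALB/c sham replicate 1. The array means of the list ran from 7.31 to 7.45 in BALB/c sham and from 7.41 to 7.44 in C57BL/6 sham, and from 8.11 to 8.21 and from 8.02 to 8.19 after HD. Genes that rose in BALB/c and were not called in C57BL/6 at the probe set used were Btg2 (0.63 and 0.45), Phlda3 (0.96 and 0.32) and Psrc1 (1.61 and 1.18), and at another probe set Btg2 rose in both strains (0.64 and 0.55). Phlda3, a repressor of the kinase AKT, had a strain difference of 0.64 (unadjusted p = 0.0412, adjusted p = 0.798, limma). On the mean of both strains Sesn1 (−0.33) and Sfn (−0.47) fell, while the other members that were not called included Plk2, Ccng2 and Gadd45a with mean responses of −0.20, −0.03 and −0.35.

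MHC class II genes fell in both strains. H2-Aa, the alpha chain of I-A on chromosome 17 from 34282744 to 34287823, had sham values of 11.27, 11.10 and 11.25 in BALB/c and 11.09, 10.54 and 10.69 in C57BL/6, and HD values of 9.61, 9.15, 9.72 and 9.09 and of 8.86, 8.03, 8.65 and 9.07. H2-Ab1, the beta chain of I-A, went from 9.81, 9.67 and 9.63 to 8.20, 7.32, 8.13 and 7.74 in BALB/c and from 10.17, 9.62 and 9.85 to 7.86, 7.68, 8.06 and 8.26 in C57BL/6. In both genes all HD arrays lay below all sham arrays. H2-Aa fell 3.51-fold in BALB/c and 4.34-fold in C57BL/6, and H2-Ab1 3.62-fold and 3.77-fold. The strain differences were 0.31 (interval −0.56 to 1.17) and 0.06 (interval −0.69 to 0.81). H2-Eb1, the I-E beta chain, fell by 1.74 and 1.93, Cd74, the invariant chain, by 1.41 and 1.47, and the peptide-loading genes H2-DMa and H2-DMb2 by 1.03 and 1.37 and by 1.36 and 1.26. In whole-gland RNA, fewer cells of a type and less RNA per cell cannot be told apart.

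Of the 11 measured class II genes, 6 fell in both strains, where 3.96% of all genes fell in BALB/c and 0.618% in C57BL/6. The other 5 were not called, with H2-DMb1 at −0.47 and −0.53, Ifi30 at −0.32 and −0.35, H2-Oa at −0.25 and −0.28, H2-Ob at 0.05 and −0.20, and the class II transactivator Ciita, whose arrays lay between 4.06 and 4.41, at −0.21 and −0.04. The list medians were −1.03 and −1.26, the median strain difference was 0.0585, and no member had a strain difference at an unadjusted p under 0.05. H2-Ea, the I-E alpha chain described below, was not on this list. It had a large negative strain difference that was not called (−1.55 at a probe set), so these values leave it out. Leaving out C57BL/6 sham replicate 2 moved the median to 0.19, and leaving out C57BL/6 sham replicate 1 moved it to −0.02. Genes of antigen-presenting and myeloid cells that fell in both strains as well were the chemokine receptor Ccr2 (−1.76 and −1.85), the endotoxin coreceptor Cd14 (−0.87 and −0.79) and Cytip, a regulator of leukocyte adhesion (−1.94 and −2.34). Ccr2 went from 7.48, 8.85 and 7.07 to 5.93, 6.09, 5.70 and 6.44 in BALB/c and from 7.97, 7.26 and 8.57 to 5.71, 6.29, 5.95 and 6.41 in C57BL/6, with no overlap of HD and sham in either strain. The general macrophage markers Csf1r, Adgre1 and Cd68 were not called in either strain (Csf1r −0.47 and −0.09, Adgre1 −0.69 and −0.36, Cd68 −0.22 and 0.27), and no B cell gene of 16 was called. Mpeg1, a further macrophage marker, had larger negative responses, at −1.13 in BALB/c and −1.13 in C57BL/6. The mean of 32 macrophage genes ran from 8.04 to 9.16 in BALB/c sham and from 7.05 to 8.18 in BALB/c HD, and from 7.58 to 8.26 and from 7.27 to 7.84 in C57BL/6. The part of macrophage content in the fall of class II genes was not tested.

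A group of epithelial genes fell in both strains. Elf5, the transcription factor of the alveolar luminal lineage, went from 8.78, 8.14 and 9.65 to 7.71, 6.60, 7.15 and 6.31 in BALB/c and from 10.11, 8.44 and 9.21 to 6.75, 6.16, 7.02 and 6.88 in C57BL/6. It fell by 1.91 and 2.55, with a strain difference of 0.64 (interval −0.62 to 1.90). A dimmer probe set of Elf5 had −0.78 and −0.41, with a difference of the other sign (−0.36). Its relative Ehf fell by 1.91 and 2.84, the mucin Muc15 by 2.24 and 3.39, the whey acidic protein family gene Wfdc18 by 1.76 and 1.96 and the receptor tyrosine kinase Kit by 1.13 and 1.31. Muc15, which fell 4.74-fold in BALB/c and 10.5-fold in C57BL/6, had the largest mean fall among the 10 named genes that fell in both. C57BL/6 sham replicate 1 was the highest of the 3 C57BL/6 sham arrays in Elf5, Ehf, Muc15 and Wfdc18, and the mean response of Muc15 over both strains ran from −3.31 to −2.58 over the alternatives and was called in each of the 25 that gave a value. The call in both strains was less stable, and each of Elf5, Ehf, Muc15, Wfdc18, Kit and Plet1 lost it under at least 1 alternative. Plet1, a progenitor surface marker, fell by 1.85 and 1.56 and Aldoc, an aldolase, by 1.53 and 1.70. On the mean of both strains 7 of 18 milk and alveolar genes fell, where 7.72% of all genes fell and 5.13% rose.

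In size, the responses of BALB/c were on the whole somewhat larger. On the mean of both strains 2599 probe sets were called, 1020 higher and 1579 lower, and 2587 of them had responses of the same sign in both strains. A large mean favours responses of the same sign, so the count of 2587 follows largely from the choice. Of the 2599, 1804 (69.4%) had the larger response in BALB/c, with 70.7% of those that rose and 68.6% of those that fell. Signed by direction, the median response was 0.438 in BALB/c and 0.337 in C57BL/6 and the median of the strain difference 0.109. With 4 HD and 3 sham arrays in each strain, choosing on the mean does not choose on the difference if the spread is equal. Without the BALB/c arrays with muscle transcripts the share was 77.9%, with plate column as a covariate 61.9% of the 423 then called, and with single arrays left out 62.1% to 76.6%. The 2599 calls were 1677 without C57BL/6 sham replicate 1. Probe sets share arrays and are not independent, so no test goes with this share. Among the 121 probe sets called in both strains 54 had the larger response in BALB/c. Their medians were 0.977 in BALB/c and 1.01 in C57BL/6 for the 60 that rose and −1 and −1.14 for the 61 that fell, and 17 of the latter and 37 of the former were larger in BALB/c. The adjusted threshold was harder to pass in C57BL/6, where fewer probe sets were called. Membership in the 121 thus favours larger C57BL/6 responses, and these counts and medians carry that lean.

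Strain differences that were large in size but not called are described next. At an absolute strain difference above 0.58 with an unadjusted p under 0.01, the thresholds the study used for HD, 90 probe sets (0.398%) were higher in BALB/c and 76 (0.336%) lower, 166 in all and 121 genes. Of the 166, 88 were called in BALB/c alone, 16 in C57BL/6 alone, none in both and 62 in neither, and 128 had responses of opposite sign. On 156 of the 166 the HD arrays of the strains, taken from their own sham mean, did not overlap, which 2632 probe sets (11.6%) did in all. A large difference favours opposite signs, calls in 1 strain only and no overlap, so these counts follow in part from the choice. Without BALB/c sham replicate 3 the count was 315. At 1 month after exposure, in 15 other mice of the same groups, 112 of the 166 (67.5%) had a strain difference of the same sign, against 50.5% of all probe sets. The 24 genes named below are the 12 highest and 12 lowest among 111 such genes without overlap, so their size at 4 hr is a description. At 1 month 16 of the 24 had the same sign, 10 of the 12 higher and 6 of the 12 lower in BALB/c, and 5 of them had an unadjusted p under 0.05, while none passed adjustment.

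Akap9, a scaffold of protein kinase A at the centrosome and Golgi on chromosome 5 from 3927736 to 4080204, was the named gene whose arrays moved in opposite directions in the strains with no overlap in either. BALB/c sham arrays had 7.24, 7.45 and 7.27 and HD arrays 6.95, 6.64, 6.89 and 6.83. C57BL/6 sham arrays had 6.69, 6.42 and 6.55 and HD arrays 6.94, 6.97, 6.93 and 7.16. It fell in BALB/c (−0.49, adjusted p = 0.0145) and had 0.45 in C57BL/6 (adjusted p = 0.0685), with a strain difference of −0.94 (interval −1.29 to −0.59, adjusted p = 0.11). The HD levels of the strains met between 6.64 and 7.16, while their sham levels lay apart. Over the alternatives the difference ran from −1.02 to −0.87 and its adjusted p from 0.036 to 0.414, and at 1 month it was −0.16 (unadjusted p = 0.338).

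H2-Ea, the I-E alpha chain, had arrays of 11.15, 10.91 and 11.14 in BALB/c sham and 9.67, 8.71, 9.63 and 8.74 in BALB/c HD, and fell 3.68-fold there. C57BL/6 mice are known not to express this gene, and their arrays lay between 3.92 and 4.38, where 17.1% of probe sets in C57BL/6 sham had a lower mean. The strain difference was −1.67 (interval −2.34 to −0.99), with a C57BL/6 level that left little room for a fall. The BALB/c fall of 1.88 is close in size to those of H2-Aa and H2-Ab1 in the same strain. Another probe set gave −1.55, and one at the low end of the scale −0.08. Il33, an alarmin cytokine of stromal and epithelial cells, went from 9.53, 8.92 and 9.72 to 7.30, 8.44, 7.75 and 7.24 in BALB/c, a 3.26-fold fall, and from 6.11, 5.80 and 6.31 to 5.98, 6.04, 5.96 and 5.92 in C57BL/6. Its strain difference was −1.61 (interval −2.69 to −0.53), and its level in BALB/c sham was higher than in any C57BL/6 array. Of the 24 genes, 12 had sham levels that differed between strains at an adjusted p under 0.05, H2-Ea and Il33 among them, and strain variants under the probes were not analysed here.

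Luminal genes mostly had negative strain differences, none of them called. Krt19, a luminal keratin on chromosome 11 from 100140810 to 100145926, went from 11.56, 11.06 and 11.01 to 10.13, 9.21, 9.51 and 8.39 in BALB/c and from 11.50, 12.15 and 12.07 to 10.84, 11.57, 10.88 and 11.97 in C57BL/6. HD and sham arrays were apart in BALB/c and overlapped in C57BL/6. It fell 3.73-fold in BALB/c and had −0.60 in C57BL/6 (adjusted p = 0.455), with a strain difference of −1.30 (interval −2.22 to −0.38, adjusted p = 0.678). Slc12a2, a sodium, potassium and chloride cotransporter, went from 10.22, 10.33 and 9.56 to 9.22, 8.55, 8.90 and 7.65 in BALB/c and from 9.01, 10.19 and 10.34 to 9.65, 9.83, 9.98 and 10.29 in C57BL/6. It fell in BALB/c by 1.46, and its strain difference was −1.55 (interval −2.59 to −0.50), with −1.40 and −0.99 at its other probe sets. At 1 month the strain difference was −1.49 for Krt19 (unadjusted p = 0.00169, adjusted p = 0.723) and −1.75 for Slc12a2 (unadjusted p = 0.0012, adjusted p = 0.711). Keratins Krt8 and Krt18, the partners of Krt19, had strain differences of −1.28 and −0.91, and the surface glycoprotein Cd24a −0.96 at one probe set and −0.81 at a brighter one. Wfdc2, a secreted protease inhibitor, had −1.09 in BALB/c and 0.54 in C57BL/6, neither called, and a strain difference of −1.63 at 4 hr and −1.88 at 1 month (unadjusted p = 0.00278, adjusted p = 0.852).

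Of 33 measured luminal genes, 20 fell in BALB/c (3.96% of all genes) and 3 fell in C57BL/6 (0.618%), namely Elf5, Ehf and Kit, which fell in both. The medians were −1.05 and −0.59, and the median strain difference was −0.477, with 30 of 33 negative and 7 at an unadjusted p under 0.05 (Krt8, Krt18, Krt19, Cd24a, Wfdc2, Tmprss2 and Slc12a2), where 2.6% of all genes were lower and 3.29% higher at that p. The 3 positive members were Ehf, Kit and Elf5, the last with the sign turned at its other probe set. The list mean of BALB/c arrays went from 8.50, 8.05 and 8.48 to 7.79, 7.14, 7.48 and 6.56 and that of C57BL/6 arrays from 8.49, 8.69 and 8.60 to 7.76, 8.11, 7.79 and 8.34. In both strains HD arrays lay below sham arrays. BALB/c HD replicate 4 was lowest and C57BL/6 HD replicate 4 highest of their groups, and the median difference was −0.25 without the former and −0.36 without the latter. Without the BALB/c arrays with muscle transcripts it was −0.57. At 1 month the list median of the strain difference was −0.571, with 6 of 33 positive. The hormone-regulated Wnt4 had −0.29 at 4 hr and −1.51 at 1 month (unadjusted p = 0.000453, adjusted p = 0.603), and the receptors Esr1 and Pgr were not called in either strain (responses of 0.04 and 0.32 and of −0.21 and 0.02). Among 21 myoepithelial genes the medians were −0.314 and −0.17 and the median strain difference 0.0158, with Trp63 falling in BALB/c (−1.09) at a response of −1.16 in C57BL/6, and Krt5 at −0.88 and −1.02. Fewer luminal cells and less RNA per luminal cell cannot be told apart here. Of the genes the study chose on these samples for quantitative PCR after HD, the 5 measured (Krt19, Cd24a, Wnt4, Ido1 and Cdt1) all had negative strain differences, which is no independent evidence. The values were −1.30, −0.96, −0.29, −1.32 and −0.37, and a brighter probe set of Cdt1 had −0.15. Ido1, a tryptophan-degrading enzyme, had a standard error of 1.42, and Cdt1, a replication licensing factor, fell in BALB/c by 1.11 with −0.75 in C57BL/6 at the probe set used.

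**Figure D3:**
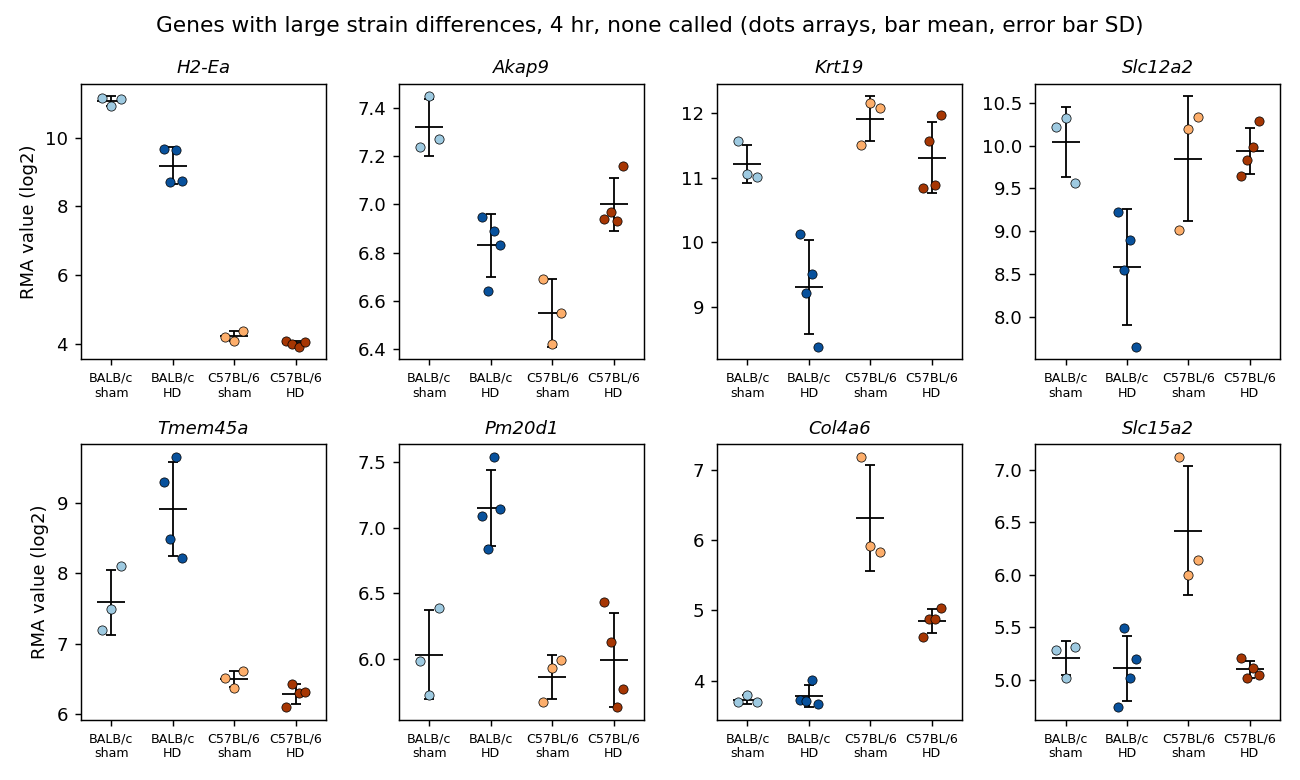
RMA values (log2) on the vertical axis of 8 genes with large strain differences of which none was called, drawn as dots per array with the group mean and 1 SD. Akap9 moves in opposite directions in the strains, H2-Ea and Col4a6 are at the low end of the scale in 1 strain, and Krt19 and Slc12a2 are lower after HD in BALB/c.

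Some matrix and stromal genes were called after HD in BALB/c and not in C57BL/6, and their strain differences were not called. Col16a1, a collagen gene, was instead called in both strains (−1.24 and −1.34, strain difference 0.10), at a probe set not counted in the list below. Mmp14, a membrane collagenase, went from 10.53, 10.62 and 10.36 to 9.30, 9.49, 8.89 and 8.92 in BALB/c and from 10.00, 9.54 and 9.80 to 9.24, 9.58, 8.95 and 9.82 in C57BL/6. It fell 2.55-fold in BALB/c and had a strain difference of −0.97 (interval −1.68 to −0.26). Adamts4, a proteoglycan-cleaving protease, and Wnt2, a stromal Wnt ligand, fell by 1.39 and 1.23 in BALB/c and had 0.04 and 0.09 in C57BL/6. In Adamts4 the BALB/c sham arrays had 7.18, 7.56 and 5.93 and in Wnt2 7.82, 7.36 and 6.36, so that BALB/c sham replicate 3 lay nearest to the HD arrays in both. At 1 month their strain differences had the opposite sign (0.33 and 0.68). Of 40 measured fibroblast and matrix genes, 10 fell in BALB/c (3.96% of all genes) and none in C57BL/6 (0.618%). The medians were −0.491 and −0.229, the median strain difference was −0.269 with 34 negative, and it was −0.15 without BALB/c sham replicate 2, −0.41 without C57BL/6 HD replicate 1 and 0.317 at 1 month. Examples are Emilin1, an elastic fibre protein (−1.16 and −0.13), Pdgfrb, the pericyte and fibroblast growth factor receptor (−0.65 and −0.25), and Col1a1, the main fibrillar collagen (−1.12 and −0.51). Of 32 macrophage genes 5 fell in BALB/c (3.96% of all genes) and 2 in C57BL/6 (0.618%), with medians of −0.61 and −0.221 and a median strain difference of −0.358. This value was −0.05 without BALB/c sham replicate 2, which had the highest macrophage list mean (9.16, with 8.04 and 8.16 on the other sham arrays), −0.14 without BALB/c HD replicate 3, −0.16 without C57BL/6 sham replicate 2, −0.56 without BALB/c sham replicate 1 or C57BL/6 sham replicate 3, −0.59 without the BALB/c arrays with muscle transcripts and 0.586 at 1 month.

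Further genes with negative strain differences were Acot1, an acyl-CoA thioesterase (−1.32 and 0.05), Cel, the bile salt-stimulated lipase (−0.99 and 0.10), and Vav3 (−1.01 and −0.10), all of which fell in BALB/c. Other probe sets of Vav3 had strain differences of −0.58 and −0.20, and one of Adamts4 at the low end of the scale −0.34. Cel had 5.68, 4.71 and 5.04 in BALB/c sham and 4.02 to 4.36 after HD, and 4.13 to 4.46 in C57BL/6, where 16.6% of probe sets had a lower mean in sham. Abhd18, a gene of unsettled function, rose in C57BL/6 instead, from 5.05, 5.21 and 4.69 to 5.92, 5.91, 5.58 and 5.77, while BALB/c had 5.06, 5.13 and 5.21 and then 4.93, 4.94, 5.04 and 5.25. Its strain difference was −0.90 (interval −1.36 to −0.44, adjusted p = 0.327).

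On the other side, Fcgbp, a mucin-like protein that binds the Fc part of IgG, had the highest strain difference. Its C57BL/6 arrays went from 11.31, 10.06 and 10.18 to 7.84, 8.10, 7.32 and 7.54, a 7.05-fold fall, and its BALB/c arrays from 10.22, 8.58 and 10.42 to 9.80, 8.65, 9.30 and 8.41. HD and sham arrays overlapped in BALB/c and were apart in C57BL/6. The strain difference was 2.12 (interval 0.75 to 3.49, adjusted p = 0.585) and at 1 month 0.51. The type IV collagen Col4a6, the peptide transporter Slc15a2 and the actin-binding Coro2a likewise fell in C57BL/6 with no call in BALB/c, by 1.46, 1.32 and 1.12. Their BALB/c arrays were low from the start, at 3.67 to 4.01, 4.74 to 5.49 and 4.73 to 5.52, where 1.1%, 37% and 34.4% of probe sets had a lower mean in BALB/c sham. C57BL/6 sham replicate 1 was highest in Col4a6 (7.19, with 5.92 and 5.84) and Slc15a2 (7.12, with 6.00 and 6.14). Without it the strain differences were 1.07 in place of 1.51 and 0.88 in place of 1.23. A brighter probe set of Slc15a2 had sham means of 6.98 in BALB/c and 7.70 in C57BL/6 and responses of −0.66 and −0.79. Its strain difference was 0.12 with an SE of 0.74 (unadjusted p = 0.868, limma), so that the probe sets of the gene disagree. Another probe set of Col4a6 had a strain difference of 0.82. For Col4a6 the value at 1 month was 1.44 (unadjusted p = 0.00252, adjusted p = 0.852).

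Genes that rose in BALB/c with no call in C57BL/6 were Tmem45a, a membrane protein of epithelia, Serpina1b, an alpha-1 antitrypsin, Pm20d1, an enzyme of N-acyl amino acids, and Aldh1a7, an aldehyde dehydrogenase. Tmem45a went from 7.19, 7.49 and 8.10 to 9.29, 8.49, 9.65 and 8.22 in BALB/c and from 6.51, 6.38 and 6.61 to 6.10, 6.43, 6.30 and 6.32 in C57BL/6. It rose 2.5-fold in BALB/c, and the strain difference was 1.53 (interval 0.83 to 2.24, adjusted p = 0.237), 1.21 without the BALB/c arrays with muscle transcripts and 0.69 at 1 month (unadjusted p = 0.0472). Pm20d1 went from 5.98, 5.72 and 6.39 to 7.09, 6.84, 7.54 and 7.14 in BALB/c, all HD arrays above all sham arrays, and from 5.67, 5.93 and 5.99 to 6.43, 6.13, 5.63 and 5.77 in C57BL/6, with a strain difference whose interval ran from 0.40 to 1.60. Serpina1b rose 3.63-fold in BALB/c, from 6.57, 6.13 and 7.72 to 9.00, 8.45, 9.37 and 7.85, while C57BL/6 arrays stayed between 3.82 and 4.39. Its probe set can share signal with near-identical paralogs of the Serpina1 family, so the value belongs to the family, and another such probe set had a strain difference of 1.41. The liver gene Alb had 1.02 in BALB/c and 0.33 in C57BL/6, while the liver markers Apoa1 and Ttr were at 3.81 to 4.41 on all arrays, and the part of other tissue in Serpina1b was not tested. Aldh1a7 rose by 0.96 in BALB/c. Of the others, Pkp2, a desmosomal plakophilin, had 0.79 and −0.28, the potassium channel gene Kcnj14 0.69 and −0.33 and Pcdha1, at a probe set of the protocadherin alpha cluster, 1.02 and −0.48, none of them called in either strain.

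Lipid synthesis genes had positive strain differences as a group, without a call. Idi1, the isopentenyl diphosphate isomerase of the sterol pathway, went from 8.35, 7.58 and 8.87 to 8.80, 8.85, 9.42 and 9.09 in BALB/c and from 9.25, 9.55 and 9.13 to 9.61, 9.16, 8.51 and 8.43 in C57BL/6. HD and sham arrays overlapped in both strains, and the strain difference was 1.16 (interval 0.39 to 1.92, adjusted p = 0.599). Lss, lanosterol synthase, and Sc5d, a sterol desaturase, had 1.33 and 0.91. Of 16 cholesterol synthesis genes 15 had a positive strain difference, against 51.6% of all genes, and 3 of them at an unadjusted p under 0.05, against 3.29%, with medians of 0.291 in BALB/c and −0.365 in C57BL/6 and a median strain difference of 0.654. None was called in BALB/c, and Stard4, a sterol transfer protein, fell in C57BL/6 (−0.74, with −0.55 in BALB/c). The array means of the list overlapped, at 7.17 to 8.25 in BALB/c sham, 7.74 to 8.30 in BALB/c HD, 8.12 to 8.65 in C57BL/6 sham and 7.49 to 8.53 in C57BL/6 HD. The difference was 0.38 without BALB/c sham replicate 2 and −0.0796 at 1 month. All 15 measured fatty acid synthesis genes had a positive strain difference (median 0.417), none at an unadjusted p under 0.05, and the median was 0.21 without BALB/c sham replicate 2, 0.25 without C57BL/6 HD replicate 3 and 0.66 without C57BL/6 HD replicate 1. Among brown fat cell genes the median strain difference was 0.588, with list means from 6.85 to 9.29 in C57BL/6 sham and from 6.49 to 7.40 in BALB/c, and the part of brown fat in the lipid genes was not tested. Of 17 white fat cell genes 14 had a positive strain difference, with medians of 0.358 in BALB/c and 0.0611 in C57BL/6. Their list mean ran from 11.38 to 11.54 in BALB/c sham and from 11.72 to 11.82 in BALB/c HD, without overlap, and from 11.51 to 11.69 and from 11.58 to 11.72 in C57BL/6. The median strain difference of white fat genes (0.196) had the sign of those of the lipid lists and the opposite sign of the luminal and matrix lists. In C57BL/6 alone the white fat median was 0.0611, with −0.365 for cholesterol and −0.306 for fatty acid synthesis genes. The part of white fat in the lipid, luminal and matrix lists was not tested.

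**Figure D4:**
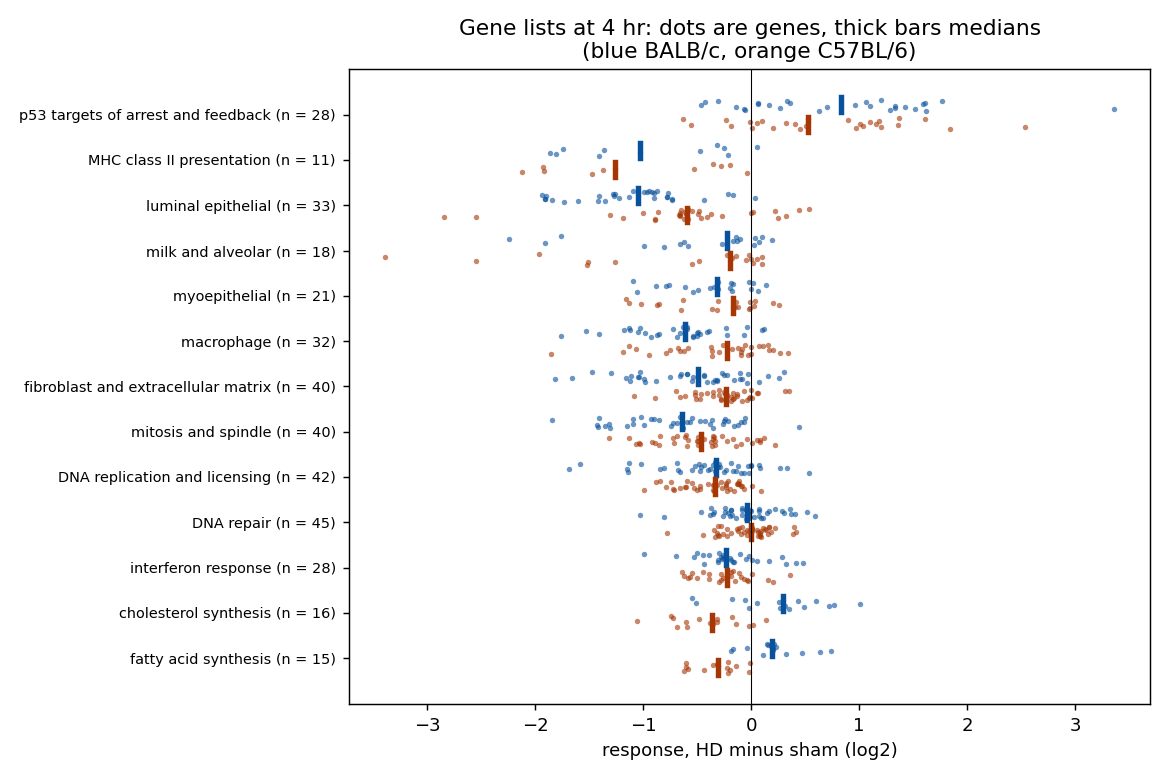
Response to HD (HD minus sham, log2) on the horizontal axis for the genes of 13 lists, with a dot per gene and a bar at the list median, blue for BALB/c and orange for C57BL/6. The medians of p53 targets (0.832 and 0.526) and class II genes (−1.03 and −1.26) lie on the same side in both strains, luminal genes are lower in BALB/c (−1.05 and −0.59), and the lipid lists lie on either side of 0.

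No mitosis gene was called in either strain. The 40 mitosis and spindle genes had medians of −0.641 and −0.466, and none had a strain difference at an unadjusted p under 0.05. The list means of sham arrays had an SD of 0.47 in BALB/c and 0.71 in C57BL/6, those of HD arrays 0.12 and 0.25. The median strain difference of −0.17 was 0.04 without C57BL/6 sham replicate 1 and −0.57 without C57BL/6 sham replicate 3, so its sign is not settled. Of 42 replication genes 12 fell on the mean of both strains, where 7.72% of all genes fell, with the helicase subunit Mcm6 at −1.24 and Cdt1, at its brighter probe set, at −1.06, at a median strain difference of 0.034. Among 45 DNA repair genes 3 rose in BALB/c, where 3.43% of all genes rose, which is little above that background. Ercc5, an excision repair nuclease (0.59), Parp3, a strand break sensor (0.52), and Msh3, a mismatch repair gene (0.41), rose, and the ligase Lig1 fell there (−1.03), while none was called in C57BL/6. Polb, the base excision repair polymerase, had −0.46 and 0.14, neither called. Of 28 interferon response genes 1 rose in BALB/c, a share near the 3.43% of all genes. It was Gbp2, a guanylate-binding protein, which went from 8.85, 9.00 and 8.70 to 9.27, 9.35, 9.32 and 9.38 and was not called in C57BL/6 (9.10, 8.99 and 9.04, then 8.83, 8.97, 9.27 and 8.97), with a strain difference of 0.51 (interval 0.18 to 0.85, adjusted p = 0.599). The medians of the interferon list were −0.231 and −0.219. Of 16 hormone-responsive genes none was called in either strain, and Stc2, a secreted stanniocalcin, had −1.02 and 0.08.

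**Figure D5:**
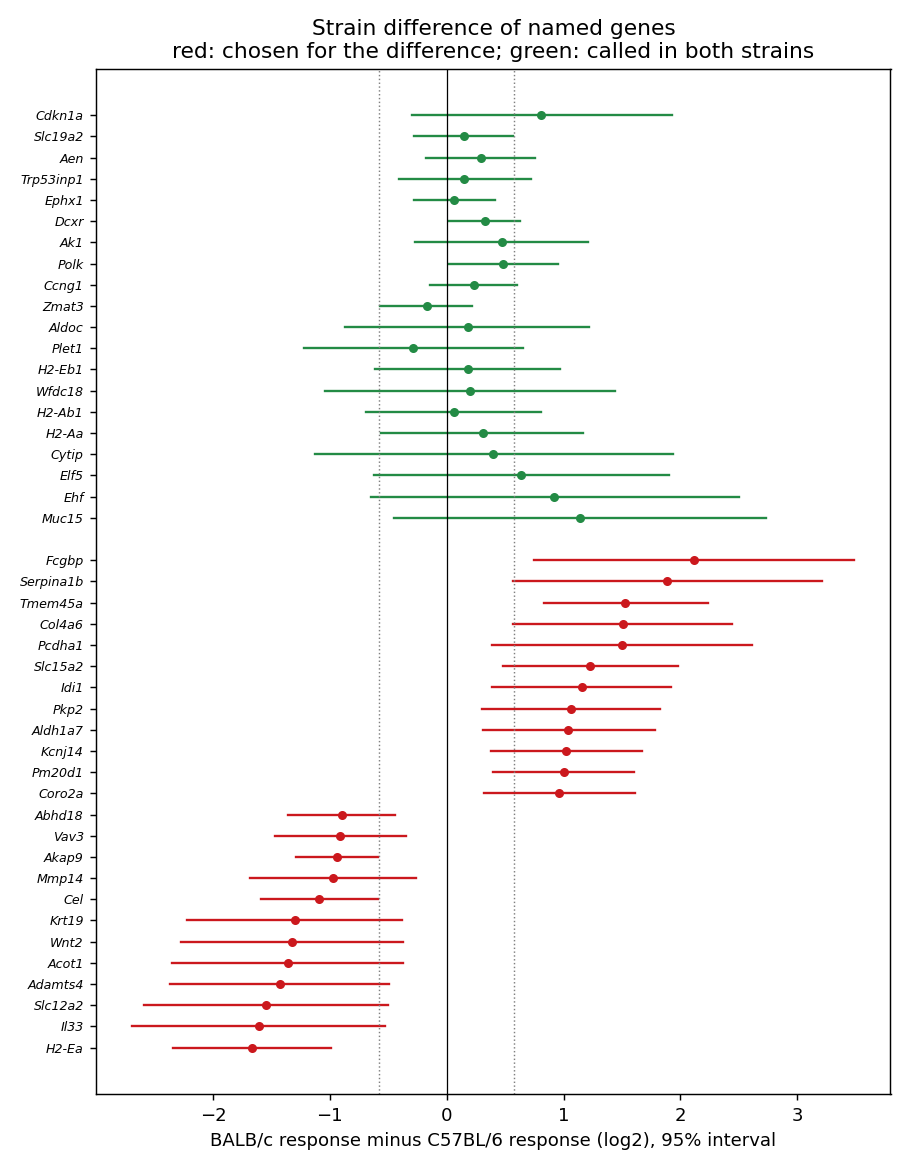
Strain difference (BALB/c response minus C57BL/6 response, log2) on the horizontal axis with its 95% interval, unadjusted for the number of probe sets, for the 20 named genes called in both strains (green) and the 24 named for their strain difference (red). Dotted lines mark 0.58 on either side of 0. The intervals of the green genes include 0 except for Dcxr and Polk, and those of the red genes leave out 0 because the genes were chosen for it.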

How the data were processed

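RNA of single mice was hybridized to Affymetrix HT_MG-430A arrays. The authors deposited log2 values made with RMA, a method of background correction, quantile normalization and summary over the probes of each probe set, and the submitters' processing notes also name limma. These values were used as deposited. Array medians lay between 6.16 and 6.36. The number of arrays limits the precision, and p-values measure the spread between mice.

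One limma fit held the 12 group means of all 43 mammary arrays (31 residual degrees of freedom, 3.762 prior). The strain difference, each strain's response and their mean were contrasts, adjusted by Benjamini-Hochberg over 22626 probe sets. Adjusted p-values in the text are from this fit. The fit was tested on simulated data. Symbols came from the array annotation: 287 probe sets name several genes and 4336 none, and these were tested but not counted as genes. Of 998 entries in 39 gene lists 853 matched. In lists a gene is its brightest probe set.

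Named genes are the 12 highest and 12 lowest strain differences past the study's thresholds without overlap between strains, the 10 highest and 10 lowest mean responses among genes called in both strains with no overlap of HD and sham arrays, up to 6 members of each described list and the genes of the study's PCR after HD. A named gene is its probe set with the smallest p of the contrast it is named for. Members of lists and rules were chosen with earlier results of these data known. Other genes were named after their values were seen. Promoters were read from a RefSeq table of GRCm38.p6.

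Replicate numbers did not pair the arrays: residuals of arrays with the same number correlated at −0.0484 on average (19 pairs, −0.324 to 0.303), those of other pairs at 0.0166 (54 pairs). Alternatives were other scalings, filters, variance models, covariates for plate position and muscle transcripts, and leaving out single arrays. Tools were R 4.3.3, limma 3.58.1, Python 3.11.15, pandas 2.3.3, numpy 2.4.6 and matplotlib 3.10.9.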

Additional observations from a re-analysis of the deposited data

Results flagged for a closer look

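In 106 groups of 4 HD arrays, over the genes named for a strain difference or a shared response and over list means, 3 (2.83%) had an array far from the other 3 by Dixon's ratio of gap to range, where chance gives about 1 in 20. The skeletal muscle list mean of BALB/c HD replicate 1 was 10.23, with 5.07 to 5.12 on the other BALB/c HD arrays (ratio 0.989). Col4a6 in BALB/c HD replicate 3 was 4.01, with 3.67 to 3.72 on the others (ratio 0.857), a small step at the low end of the scale. Akap9 in C57BL/6 HD replicate 4 was 7.16, with 6.93 to 6.97 on the others (ratio 0.832), in the direction in which that group lies from sham.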

How the results depend on the processing

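Small groups limit these results. With all arrays limma called 0 strain differences, and 1404 probe sets had an unadjusted p under 0.05. Leaving out single arrays gave 0 to 3 calls, the 3 without BALB/c HD replicate 1. Leaving out both BALB/c arrays with muscle transcripts gave 0, and so did every alternative that kept all 14 arrays. At the study's thresholds the count of 166 was 84 with 1 probe set per gene, 106 with a filter on low values, and 123 to 315 with single arrays left out. The 121 probe sets called in both strains were 57 with plate column as a covariate and 55 to 128 with single arrays left out. Of the 121, 35 (23 genes, 19 higher, and Cd74, H2-Eb1, H2-Ab1 and H2-Aa lower) were shared in the fit with all arrays and in each alternative that kept all probe sets. Plate well as a block was left out of this count. The 69.4% with the larger response in BALB/c was 61.9% with plate column, 77.9% without the BALB/c arrays with muscle transcripts and 62.1% to 76.6% with single arrays left out. The median strain difference of p53 targets was 0.09 without both BALB/c arrays rich in muscle RNA and 0.07 if BALB/c sham replicate 1 alone was left out, 0.07 to 0.18 over all alternatives, and that of class II genes ran from −0.02 to 0.19 with single arrays left out. Where a value moved for another reason than fewer arrays or probe sets, the cause was not tested. No named strain difference or mean response changed its sign, and 608 of 610 and 497 of 497 recomputed values kept their side of the threshold, the other 2 being H2-Ea and Akap9 without BALB/c HD replicate 1. The named genes were chosen on these same arrays for large values without overlap, so this stability follows in part from the choice.

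With a replicate block there were 0 calls for the strain difference, 167 probe sets past the study's thresholds, 98 called in both strains and 70.1% larger in BALB/c. With plate well as a block only the strain difference was taken from the fit, with 0 calls and 244 probe sets past the thresholds. With median centring the median over all probe sets was 0.0779 for the BALB/c response, 0.0899 for the C57BL/6 response and −0.0112 for the strain difference. In the main fit these medians were −0.00429, −0.00266 and −0.00076.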
